A study of Rattus norvegicus with 78 samples.

Results

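The genes described here encode the proteins of the cytosolic ribosome, as read by an Affymetrix RAE230A array in rat hippocampus. Members were the genes whose probe set carried a single symbol beginning with Rpl or Rps, the kinases named Rps6k being left out. To be kept, a probe set had to be brighter than 40% of the probe sets on the same array (the 40th percentile) in at least 9 arrays, and the brightest passing probe set stood for its gene. This gave 40 members of 7489 measured genes: 12 of the small 40S subunit, 26 of the large 60S subunit, Rplp0 of the stalk, and Rpl7l1, which carries the name of a ribosomal protein as a relative of Rpl7.

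RNA came from the dorsal portion of 1 hippocampus, the left, in each of 78 male F344 rats, an inbred strain used in studies of ageing, with 1 array per animal. Young rats were 4 to 6 months old and aged rats 24 to 26 months old. Home-cage rats without training made up NT-Y (10 young rats) and NT-A (10 aged rats). Rats trained in the Morris water maze, a test of spatial memory, were sampled on day 5 of training as 5T-Y (young), 5T-AU (aged unimpaired) and 5T-AI (aged impaired), with n = 10 each. Others were sampled 21 days after training as 21PT-Y (young, n = 9), 21PT-AU (aged unimpaired, n = 10) and 21PT-AI (aged impaired, n = 9). The aged rats had been divided by their maze performance relative to young rats. No transgene or agent is named for any group.

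A ribosome is built from a small subunit that decodes the messenger RNA and a large subunit that joins the amino acids, and the messenger RNAs of its proteins are among the most abundant in most cells. Many of them begin with a C followed by a run of pyrimidines, the 5' terminal oligopyrimidine (TOP) sequence, through which the growth kinase mTOR controls their translation. In neurons ribosomes also lie in dendrites, where translation near synapses takes part in memory. The arrays measure messenger RNA only, not translation or ribosomes. In a tissue sample, fewer cells of a type and less RNA per cell cannot be told apart. Levels are log2 of signal plus 1, on arrays scaled to a common mean, and are relative to the whole array. Levels of different genes are not compared as abundances, since probe sets differ in brightness.

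Start sequences are shown to let the TOP sequence be looked for in some of the members named below. Of the 40 members 34 had an entry in the RefSeq promoter table (rat build GRCr8). Each line gives 15 bases before and 15 bases after the annotated transcription start, 5' to 3' on the strand of the gene, and capitals mark the unbroken run of C and T over the first transcribed base.
Rps23: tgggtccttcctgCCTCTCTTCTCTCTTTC
Rps24: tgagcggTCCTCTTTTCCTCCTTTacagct
Rpl22: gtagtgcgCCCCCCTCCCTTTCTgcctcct
Rpl19: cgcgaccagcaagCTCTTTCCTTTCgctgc
Rplp0: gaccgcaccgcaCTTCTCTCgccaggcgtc
Rpsa: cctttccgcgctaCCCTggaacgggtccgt
Rpl5: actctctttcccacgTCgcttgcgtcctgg
Rpl13a: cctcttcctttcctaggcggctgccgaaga
Rpl26: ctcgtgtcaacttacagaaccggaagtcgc
Rps6: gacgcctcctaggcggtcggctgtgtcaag
Their positions are chr2:23814502-23814531 (plus strand) for Rps23, chr16:96502-96531 (plus) for Rps24, chr5:168117946-168117975 (plus) for Rpl22, chr10:83519049-83519078 (plus) for Rpl19 and chr12:46718376-46718405 (minus) for Rplp0. Those of the rest are chr8:128728864-128728893 (plus) for Rpsa, chr14:1995211-1995240 (minus) for Rpl5, chr1:104748899-104748928 (minus) for Rpl13a, chr10:54109677-54109706 (plus) for Rpl26 and chr5:106420526-106420555 (minus) for Rps6.

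The run of C and T over the first transcribed base was 21 bases long in Rps23 (17 of them shown), 17 in Rps24, 15 in Rpl22, 12 in Rpl19, 8 in Rplp0 and 4 in Rpsa. In Rpl13a a run of 14 and in Rpl5 a run of 11 lay wholly before the annotated start, and in Rpl26 no run in the window was longer than 3. In Rpl11 and Rps3, which are named below but not printed, the run over the first transcribed base was 0 and 1 bases long. The first 5 transcribed bases were all C or T in 15 of the 34 members (44.1%), in 4.75% of 33469 genes of the table and in 3 of 65 genes of mitochondrial ribosomal proteins (4.62%). A run of at least 8 such bases anywhere in the 30 bases was present in 20 members (58.8%) and in 11.4% of all genes of the table. The letters CTTTCC, themselves a run of C and T, were searched within 50 bases on either side of the start on both strands. They occur in some of the sequences printed above and were not set down beforehand. On the gene's own strand 13 members (38.2%) held them, against 4.4% of all genes. On the other strand 0 members held them, against 4.72% of all genes. These are descriptions of annotated starts, which these arrays did not measure.

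All 40 members exceeded the filter in 78 of 78 arrays. The filter level lay between log2 7.16 and 7.48, depending on the array. Mean levels ran from 11.06 (Rpl24) to 13.24 (Rps23) in 38 members, while Rpl7l1 had 9.17 and Rpl39, a small protein at the exit tunnel of the large subunit, had 8.92. Of 45 genes with such a symbol 5 did not pass, each in 0 of 78 arrays: Rps27l (6.5), Rpl30 (5.43), Rps4y2 (5.24), Rpl-1 (3.54) and Rpl3l (3.37). Rpl-1 is a placental lactogen by its synonyms and is no ribosomal protein. Nearest to the filter from inside was a second probe set of Rpl7, which passed in 69 arrays with a mean of 7.57 and was set aside for the brighter one. A further 33 probe sets, all of which passed, carried a ribosomal protein symbol together with other symbols, and they are given below as a set without gene names.

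Markers of the labelled tissue were present. Those of neurons (Snap25, Camk2a and Nefl, mean log2 12.33 to 12.45 by group), of dentate granule cells (Prox1, 10.25 to 10.48) and of CA1 (Wfs1, 11.64 to 11.99) were well above the filter in all groups. The median signal of an array lay between 229.2 and 269.1 intensity units. One array, 5T-AI replicate 4, stood apart, with a mean correlation of 0.906 to the others against a median of 0.971. Its mean over the members was 12.19, while the 7 other arrays of its scan day lay between 11.83 and 11.95. The main medians of the members that use its group, and some of their counts, are given with and without it. Other day 5 values include it unless stated. Without it the age median on day 5 described below was 0.064 in place of 0.074, with 38 of 40 members above 0 in both cases, and the day 5 difference of Rpl5 was 0.11 (limma adjusted p = 0.202) in place of 0.12.

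The first question was whether the hippocampus of aged rats differed from that of young rats in these genes. No member passed the threshold in any of the 3 cohorts of rats in the fit without a batch term, yet nearly all members had a slightly higher mean in the aged rats of each cohort. The log2 difference, aged minus young, was above 0 for 37 of 40 members in untrained rats, 38 of 40 on day 5 and 36 of 40 on day 21, against 49.4%, 45.8% and 46.1% of all 10371 tested probe sets. The median differences were 0.051, 0.074 and 0.046 (1.04, 1.05 and 1.03-fold), against -0.001, -0.008 and -0.009 over all tested. By limma with Benjamini-Hochberg adjustment over all tested probe sets, 0 of 40 members had an adjusted p under 0.05 in each cohort, where 0.781%, 2.5% and 2.84% of all tested probe sets did. At an unadjusted p under 0.05, 6 members were higher in untrained aged rats (4.49% of all tested), 8 on day 5 (7.18%) and 6 on day 21 (9.33%), and 0 were lower in any cohort (4.23%, 5.04% and 7.41% of all tested). In the trained cohorts the aged value is the mean of the unimpaired and impaired groups. Without 5T-AI replicate 4 the 8 members on day 5 were 4 (Rpl5, Rpl19, Rpl34 and Rpl39), against 6.61% of all tested.

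Scan days held at most 1 array of each group, and with scan day as a block in the fit some calls changed. Then 1 member passed in untrained rats (Rpl26), 2 on day 5 (Rpl5 and Rpl19) and 1 on day 21 (Rps24), all higher in aged rats. The shares of all tested probe sets under that block were 1.15%, 3.65% and 4.7%, so that 1 of 40 on day 21 lay below the share over all. Within scan days the mean over the members was higher in the aged than in the young arrays on 9 of 10 days in untrained rats, with a median difference of 0.07. The average of a scan day's aged arrays was the higher one on 10 of 10 scan days on day 5 and on 8 of 9 on day 21. The median difference was 0.06 in both. On day 5 the differences ran from 0 after rounding to 0.19, the highest on the scan day of 5T-AI replicate 4. On some of these scan days a single aged array lay below the young one.

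**Figure D1:**
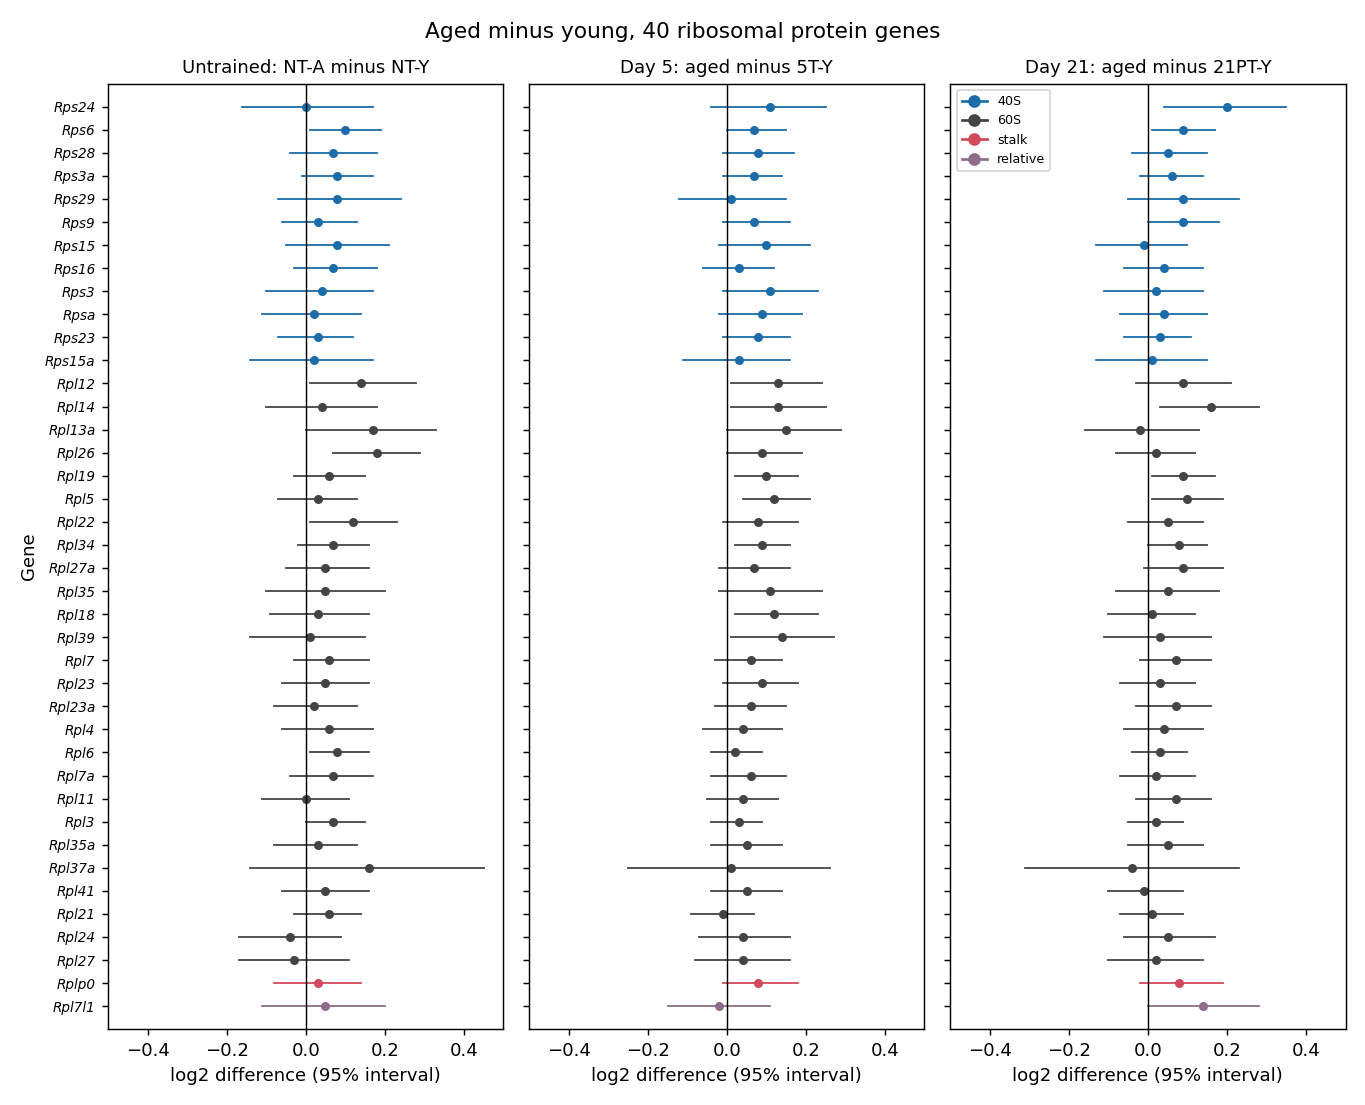
Log2 difference of aged minus young rats (x axis) with its 95% interval for each of the 40 members (y axis, by subunit), in untrained rats, on day 5 and on day 21. Most points lie to the right of 0, by at most 0.18, 0.15 and 0.2, and most intervals include 0.

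The shift was small in every member. Single differences ran from -0.04 to 0.18 in untrained rats, from -0.02 to 0.15 on day 5 and from -0.04 to 0.2 on day 21. The standard error of a member had a median of about 0.05, so that most differences were near the size of their own error. The widest 95% interval was that of Rpl37a, with limits of -0.14 and 0.45 in untrained rats and -0.31 and 0.23 on day 21. Differences above 1.37-fold in untrained rats, 1.22-fold on day 5 and 1.27-fold on day 21 lay outside the interval of each member. In 31 members the difference was above 0 in all 3 cohorts (18.5% of all tested probe sets), and in the other 9 it was above 0 in 2 cohorts. The 3 cohorts share no array, but the members covary from array to array, so that 40 members are not 40 separate observations. In no member were the aged and young arrays of a cohort free of overlap, which 0.289%, 0.299% and 0.222% of all tested probe sets were.

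Both subunits had medians above 0 in all 3 cohorts. Of the 12 genes of the small subunit 12, 12 and 11 had a difference above 0, with medians of 0.054, 0.075 and 0.046. Of the 26 genes of the large subunit 23, 25 and 23 did, with medians of 0.054, 0.065 and 0.044. The 33 probe sets of several symbols, which the rule left out, had medians of 0.049, 0.058 and 0.036, with 26, 29 and 28 above 0. Other bright probe sets, 916 with a mean of at least log2 11, a level chosen after the data were seen, had medians of 0.002, -0.017 and -0.016. They were not matched to the members in brightness, and many members lay well above that level.

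Rpl26, a protein of the large subunit near the exit tunnel, had the smallest p of the members in untrained rats. Its 10 young arrays ran from 12.4 to 12.74 with a median of 12.5, and its 10 aged arrays from 12.53 to 12.91 with a median of 12.71. All 10 aged arrays lay above the young mean, and the groups overlapped between 12.53 and 12.74. The difference was 0.18 ± 0.06 (SE, limma adjusted p = 0.123). On day 5 the Rpl26 difference was 0.09 ± 0.05 (SE, limma adjusted p = 0.432), and on day 21 it was 0.02 ± 0.05 (SE, limma adjusted p = 0.904). Within the 3 chip lots the untrained difference of Rpl26 was 0, 0.28 and 0.24, so that the first lot showed none of it. With scan day as a block the untrained call of Rpl26 changed (0.18, adjusted p = 0.0248), and its aged array was the higher one on 9 of 10 scan days.

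Rpl5, which carries the 5S ribosomal RNA and, with Rpl11, can bind Mdm2 and so stabilise p53, led on day 5. The 10 young arrays had levels from 12.06 to 12.36 with a median of 12.23, and the 20 aged arrays from 12.07 to 12.61 with a median of 12.33. Of the aged arrays 18 of 20 lay above the young mean, while the ranges overlapped almost fully at the low end. The difference of Rpl5 was 0.12 ± 0.04 (SE, limma adjusted p = 0.133) on day 5, 0.1 ± 0.04 (SE, limma adjusted p = 0.212) on day 21 and 0.03 ± 0.05 (SE, limma adjusted p = 0.952) in untrained rats. Within the chip lots the day 5 difference of Rpl5 was 0.09, 0.13 and 0.13. Rpl5 passed on day 5 with scan day as a block (0.12, adjusted p = 0.0391) and after quantile normalization (0.11, adjusted p = 0.0359). On 10 of 10 scan days the mean of its aged arrays lay above the young array, though not every single aged array did. Its partner Rpl11 had differences of 0, 0.04 and 0.07 in untrained rats, on day 5 and on day 21, with a smallest adjusted p of 0.493.

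Rps24, a protein of the small subunit that is mutated in some patients with Diamond-Blackfan anaemia, led on day 21. Its 9 young arrays ran from 11.54 to 12.15 with a median of 11.8, and its 19 aged arrays from 11.76 to 12.46 with a median of 12.03. Of the aged arrays 16 of 19 lay above the young mean. With scan day as a block Rps24 passed on day 21 (0.2, adjusted p = 0.0257), as it did with chip lot as a block (0.19, adjusted p = 0.0297). Without a block the Rps24 difference was 0.2 ± 0.08 (SE, limma adjusted p = 0.158) on day 21, 0.11 ± 0.07 (SE, limma adjusted p = 0.617) on day 5 and 0 ± 0.08 (SE, limma adjusted p = 0.998) in untrained rats. The 3' over 5' signal ratio of beta-actin, a sign of RNA quality, moved with this contrast, with a mean of log2 0.99 ± 0.38 (SD, n = 9) in 21PT-Y, 0.6 ± 0.23 (SD, n = 10) in 21PT-AU and 0.76 ± 0.28 (SD, n = 9) in 21PT-AI. With that ratio in the fit the day 21 difference of Rps24 was 0.12 (adjusted p = 0.64), while the median of the 40 members on day 21 was 0.06 and 40 of 40 members were above 0.

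**Figure D2:**
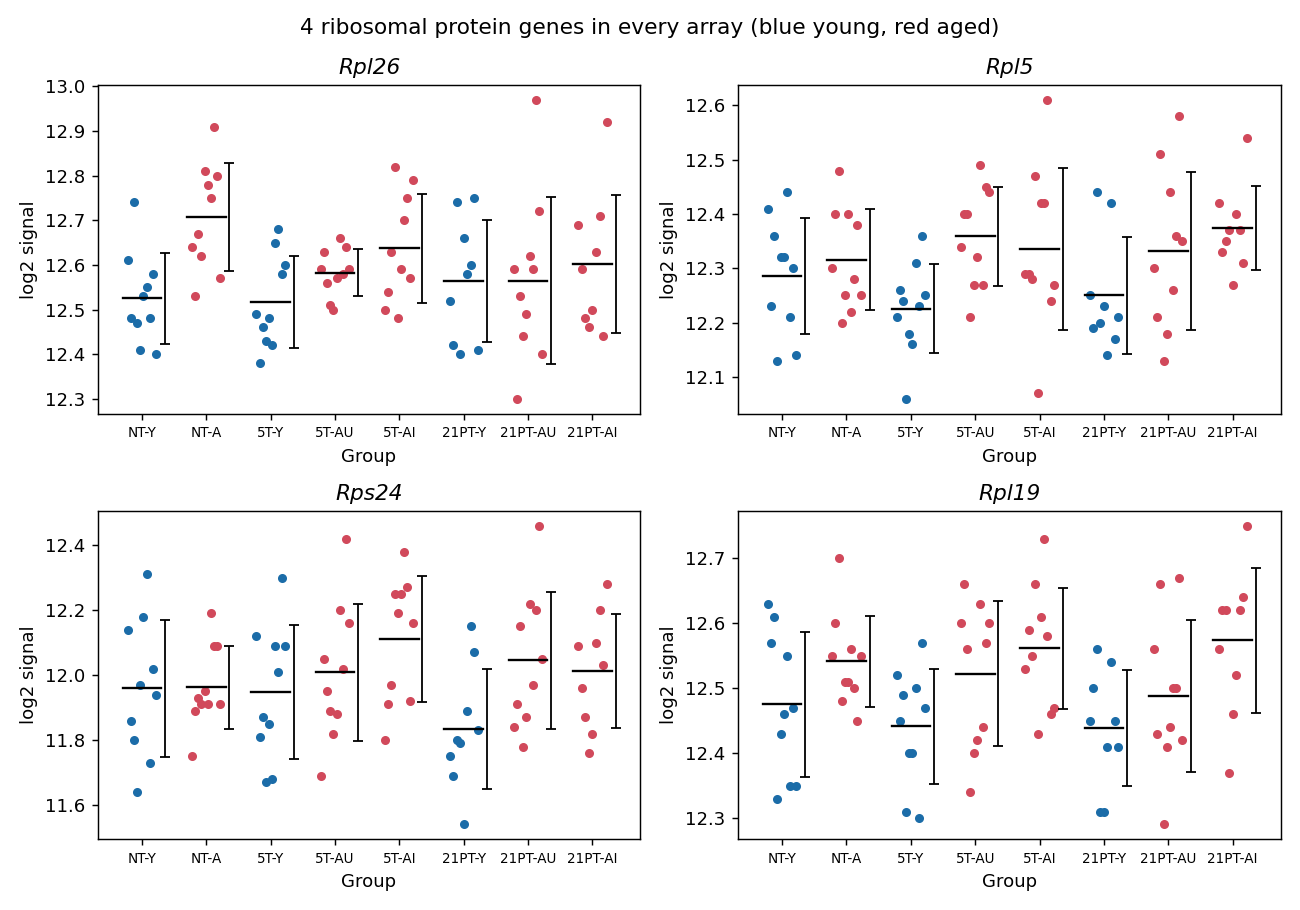
Log2 signal (y axis) of Rpl26, Rpl5, Rps24 and Rpl19 in every array of the 8 groups (x axis), young in blue and aged in red, with the group mean as a line and its SD as a bar beside it. The aged groups sit slightly above the young groups of their cohort in most panels, as for Rpl26 in NT-A (12.71 ± 0.12) against NT-Y (12.53 ± 0.1), and the points of all groups overlap.

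Whether the age difference itself changed between cohorts was tested as a difference of differences. In each of the 3 pairs of cohorts 0 of 40 members passed (0.0% of all tested probe sets), with a smallest adjusted p of 1 for day 5 against untrained, 1 for day 21 against untrained and 0.789 for day 21 against day 5. The counts at an unadjusted p under 0.05 were 0, 1 (Rpl26, smaller on day 21) and 0 members, against 3.72%, 3.88% and 6.38% of all tested. The order in which members led the cohorts is therefore a list of values, not of cohort differences.

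Of the members listed for a role in signalling or outside the ribosome, Rps6, Rplp0, Rpsa, Rps3, Rpl22 and Rpl13a are given here, and how they compare with the rest was not tested. Rps6, the substrate of the S6 kinases downstream of mTOR, had 0.1 ± 0.04 in untrained rats, 0.07 ± 0.04 on day 5 and 0.09 ± 0.04 on day 21 (SE, limma adjusted p = 0.461, 0.425 and 0.253). On day 5, 15 of 20 aged arrays of Rps6 lay above the young mean, and on day 21, 16 of 19 did. Rplp0, the stalk protein that helps to recruit elongation factors and is often used as a reference gene, had 0.03, 0.08 and 0.08, with a smallest adjusted p of 0.413. Rpsa, also known as a laminin receptor, had 0.02, 0.09 and 0.04, and Rps3, which also takes part in DNA repair, had 0.04, 0.11 and 0.02. Rpl22, needed for T cell development in mice, had 0.12, 0.08 and 0.05, with a smallest adjusted p of 0.461. Rpl13a, which in human monocytes can leave the ribosome to silence inflammatory messenger RNAs, had 0.17 ± 0.08 in untrained rats, 0.15 ± 0.07 on day 5 and -0.02 ± 0.07 on day 21 (SE, limma adjusted p = 0.536, 0.383 and 0.95).

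At an unadjusted p under 0.05, 14 members were higher with age in at least 1 cohort (14.9% of all tested probe sets). In at least 2 cohorts 6 were so (4.18% of all tested): Rpl5, Rpl12, Rpl13a, Rpl14, Rpl19 and Rps6. Without 5T-AI replicate 4 the counts were 13 (15.3%) and 4 (4.43%), the latter being Rpl5, Rpl19, Rpl34 and Rps6. Rpl12, Rpl14 and Rpl19 are named here after their values were seen. Rpl12, at the base of the stalk, had 0.14, 0.13 and 0.09 in untrained rats, on day 5 and on day 21, and 0.11 on day 5 without 5T-AI replicate 4. Rpl14 had 0.04, 0.13 and 0.16, and on day 21 19 of 19 aged arrays of Rpl14 lay above the young mean, although the 9 young arrays reached 11.48 and the aged arrays 11.51. Rpl19, at a bridge between the subunits, had 0.06, 0.1 and 0.09. The levels of Rpl19 ran from 12.3 to 12.57 in 5T-Y and from 12.34 to 12.73 in the aged rats of day 5.

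Where a gene had several passing probe sets, they did not always point the same way. The 2 probe sets of Rpl7l1 differed in sign in each cohort. On day 21 the brighter had 0.14 ± 0.07 (SE, unadjusted p = 0.0462, limma adjusted p = 0.287), and the other had -0.14 ± 0.07 (SE, unadjusted p = 0.0403, limma adjusted p = 0.269). In untrained rats the brighter had 0.05, while the other had a mean of 8.93 in NT-A and 9.06 in NT-Y. On day 5 the brighter had -0.02, while the other had a mean of 9.05 in 5T-AU and in 5T-AI and 8.98 in 5T-Y. Of the 3 probe sets of Rpsa, the dimmest had -0.03 on day 5 and on day 21, where the brightest had 0.09 and 0.04 and the remaining one had 0.08 on both days. The 2 probe sets of Rpl7 had 0.06 and 0.09 in untrained rats, 0.06 and 0 on day 5, and 0.07 and 0 on day 21.

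Other genes of the translation machinery, in lists written with earlier results of these data known, gave 1 call in the 9 comparisons. Deptor, an inhibitor within the mTOR complexes, was higher in aged than in young rats on day 5, by 0.2 ± 0.06 (SE, limma adjusted p = 0.0393). It was 1 of 21 measured genes of growth signalling to the ribosome, in a contrast where 2.5% of all tested probe sets passed. This value includes 5T-AI replicate 4. Of 71 genes of mitochondrial ribosomal proteins, which build the separate ribosome of mitochondria, 0 passed in either direction in the age contrast of any cohort. Their medians with age were -0.018, -0.023 and -0.039, with 26, 26 and 19 of 71 above 0. With impaired rats of day 21 alone set against young rats, 1 of the 71 passed as lower (limma adjusted p = 0.0461, 1.75% of all tested). With unimpaired rats of day 5 alone, 1 growth signalling gene passed as higher (limma adjusted p = 0.0468, 1.37% of all tested). The 10 elongation factors and other genes with a TOP sequence had medians of 0.044, 0.029 and 0.052, with 8, 8 and 7 above 0. The 31 initiation factors had medians of -0.01, 0.011 and -0.031, and the 31 genes of ribosome assembly and ribosomal RNA synthesis had -0.004, -0.002 and -0.047. No test of the difference between lists was run.

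**Figure D3:**
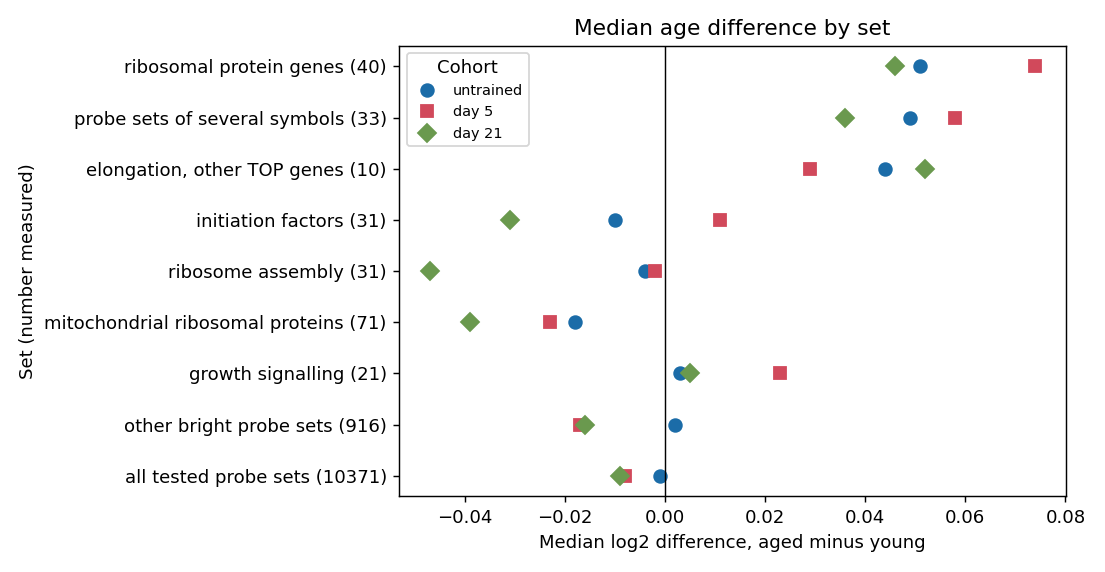
Median log2 difference of aged minus young rats (x axis) for each set of genes or probe sets (y axis) in the 3 cohorts. The ribosomal protein genes (0.051, 0.074 and 0.046) and the probe sets of several symbols lie above 0 in all 3 cohorts, and the mitochondrial ribosomal proteins (-0.018, -0.023 and -0.039) below it.

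Markers of other cell types moved with age in the same contrasts. Of 4 microglial genes 3 passed as higher in aged untrained rats, 4 on day 5 and 3 on day 21. Their mean level per array ran from 9.55 to 10.06 in NT-Y and from 10.24 to 10.68 in NT-A. On day 5 it ran from 9.47 to 9.88 in 5T-Y, from 10.35 to 10.77 in 5T-AU and from 10.07 to 12.13 in 5T-AI (to 10.7 without replicate 4), and on day 21 from 9.45 to 9.87 in 21PT-Y, from 10.31 to 10.81 in 21PT-AU and from 10.31 to 10.94 in 21PT-AI. Of 3 astrocyte genes 1 passed as higher in each cohort, of 2 measured blood genes 1, 1 and 2, and of 2 endothelial genes 0, 0 and 2. No gene of the lists for neurons, oligodendrocytes, choroid plexus or thalamus passed in these 3 contrasts. The part of these cell types in the differences of the ribosomal protein genes was not tested.

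The second question was whether aged impaired rats differed from aged unimpaired rats. The call count was 0 of 40 members on day 5 and on day 21, as it was for all tested probe sets (0.0% in both). On day 5 the median difference of the members, impaired minus unimpaired, was 0.025 with 30 of 40 above 0 (47.2% of all tested). Without 5T-AI replicate 4 the median was 0.008, with 24 of 40 above 0, and with fluidics module as a term it was 0.049. On day 21 the median was 0.05 with 32 of 40 above 0 (47.6% of all tested), and it was 0.019 with 23 above 0 after quantile normalization. Of the 916 other bright probe sets 40.6% were above 0 on day 5 (median -0.01) and 63.8% on day 21 (median 0.02). At an unadjusted p under 0.05, 1 member was higher on each day (2.08% and 2.47% of all tested) and 0 were lower (2.5% and 2.13%). The 95% intervals allowed differences from 0.75-fold to 1.21-fold on day 5 and from 0.85-fold to 1.42-fold on day 21.

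Rpl21, of the large subunit, led on day 5. It ran from 10.75 to 11.27 with a median of 11.05 in 5T-AU and from 11.03 to 11.28 with a median of 11.18 in 5T-AI, so that the low end was reached in unimpaired rats only and the upper ends were alike. The Rpl21 difference was 0.11 ± 0.04 (SE, limma adjusted p = 0.985) and 0.1 without 5T-AI replicate 4, and on day 21 it was 0.04 ± 0.05 (SE, limma adjusted p = 0.997). Rps23, at the decoding centre of the small subunit, led on day 21. It ran from 12.99 to 13.47 with a median of 13.22 in 21PT-AU and from 13.16 to 13.54 with a median of 13.36 in 21PT-AI. The Rps23 difference was 0.11 ± 0.05 (SE, limma adjusted p = 0.997), and on day 5 it was -0.03 ± 0.05 (SE, limma adjusted p = 0.997).

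Set against young rats, the unimpaired and impaired groups gave the following medians, which share their young arrays and so are given side by side. On day 5 they were 0.063 for unimpaired and 0.086 for impaired rats, with 38 and 36 of 40 members above 0 (48.6% and 44.8% of all tested). Without 5T-AI replicate 4 the day 5 median of impaired rats was 0.064, with 37 above 0. On day 21 they were 0.014 and 0.079, with 25 and 39 above 0 (47.4% and 46.6%). In these 4 comparisons 0 of 40 members passed, against 1.37%, 2.02%, 1.49% and 1.75% of all tested probe sets. Members with an unadjusted p under 0.05 numbered 3, 7, 3 and 6, all higher, where 9.54%, 12.0%, 15.9% and 12.1% of all tested probe sets passed in either direction. The 7 members of impaired rats on day 5 became 1 (Rpl19) without 5T-AI replicate 4, against 8.37% of all tested. The test of whether the impairment difference changed from day 5 to day 21 passed for 0 of 40 members (0.0% of all tested, smallest adjusted p = 0.999), and 0 had an unadjusted p under 0.05 (3.35%). The largest such change was that of Rpl37a, from -0.12 to 0.2, and its interval ran from -0.1 to 0.75.

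The third question was whether training moved these genes. Between untrained rats and day 5, 0 of 40 members passed in young rats (0.0675% of all tested) or in aged rats (0.154%). The median difference, trained minus untrained, was -0.022 in young rats with 9 of 40 above 0 (50.2% of all tested), and -0.012 in aged rats with 16 of 40 above 0 (48.6%). With module as a term the median in young rats was -0.048, and without 5T-AI replicate 4 that in aged rats was -0.02, with 12 above 0. Of the 916 other bright probe sets 44.0% were above 0 in young rats (median -0.006) and 30.8% in aged rats (median -0.026). At an unadjusted p under 0.05, 0 members were higher in young (1.53% of all tested) or aged rats (5.01%). At that level 0 were lower in young rats (1.63%) and 1, Rpl26, in aged rats (4.15%). Without 5T-AI replicate 4 the latter count was 2. Rpl7l1 led in young rats, with levels from 8.71 to 9.45 in NT-Y and from 8.99 to 9.48 in 5T-Y. The Rpl7l1 difference was 0.14 ± 0.08 (SE, limma adjusted p = 1), and its second probe set had a mean of 9.06 in NT-Y and 8.98 in 5T-Y. Rpl26 led in aged rats, with a difference of -0.1 ± 0.05 (SE, limma adjusted p = 0.534) from NT-A, the same arrays in which it was highest with age.

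Between day 5 and day 21 after training, 0 of 40 members passed in young rats (0.0964% of all tested) or aged rats (0.0675%). The median difference, day 21 minus day 5, was 0.013 in young rats with 24 above 0 (50.6% of all tested) and -0.008 in aged rats with 17 above 0 (50.2%). Without 5T-AI replicate 4 the median in aged rats was 0.002, with 21 above 0. Of the 916 other bright probe sets 55.6% were above 0 in young rats (median 0.008) and 64.2% in aged rats (median 0.015). At an unadjusted p under 0.05, 0 members were higher (3.71% of all tested in young and 2.59% in aged rats) and 0 were lower (3.65% and 3.43%). Rpl13a led in young rats, running from 11.7 to 12.25 in 5T-Y and from 11.83 to 12.21 in 21PT-Y, with a difference of 0.15 ± 0.09 (SE, limma adjusted p = 0.717). Rps29, a small zinc-binding protein of the small subunit, led in aged rats with 0.09 ± 0.06 (SE, limma adjusted p = 0.845). In 5T-AI the arrays of Rps29 ran from 12.4 to 13.21, the low end being a single array, and in 21PT-AI from 12.86 to 13.3. After quantile normalization the members above 0 numbered 26 in place of 16 for training in aged rats and 7 in place of 17 for day 21 against day 5 in aged rats, so that these directions depended on the scaling. The medians were then 0.008 and -0.03, and that of day 21 against day 5 in young rats was -0.001.

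Averaged over the 40 members, an array varied little. Group means ran from 11.94 ± 0.08 (SD, n = 10) in 5T-Y to 12.03 ± 0.08 (SD, n = 9) in 21PT-AI, and all groups overlapped. The 3 young groups had means of 11.96, 11.94 and 11.95, and the 5 aged groups had means between 11.98 and 12.03. Chip lots differed too: the second lot had a mean of 11.91 ± 0.08 (SD, n = 24), and the others 12.02 ± 0.07 (SD, n = 24) and 12.02 ± 0.06 (SD, n = 30). Each lot held 3 or 4 arrays of each group. Within the 3 lots the median age difference of the members was 0.04, 0.07 and 0.05 in untrained rats, 0.09, 0.12 (0.07 without 5T-AI replicate 4) and 0.03 on day 5, and 0.06, 0.02 and 0.07 on day 21. That of impairment was -0.07, 0.12 (0.04 without that array) and 0.02 on day 5, so that its direction did not hold within lots, and 0.03, 0.08 and 0.08 on day 21. That of training in young rats was -0.11, -0.02 and 0.04. The fluidics station's modules followed the groups closely, with 10 of 10 NT-Y arrays in the first module and 8 of 10 NT-A arrays in the fourth. The second module held 9 of the 5T-Y arrays, and the third held 8 of the 21PT-Y arrays. On day 5 the third module held 7 arrays of 5T-AU and the first held 7 of 5T-AI. On day 21 the fourth held 7 arrays of 21PT-AU and the second held 7 of 21PT-AI. Module can thus hardly be told apart from age in any cohort, or from impairment on either day. With module as a term the age medians were 0.036, 0.078 and 0.073, but that fit cannot fully separate module from group.

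**Figure D4:**
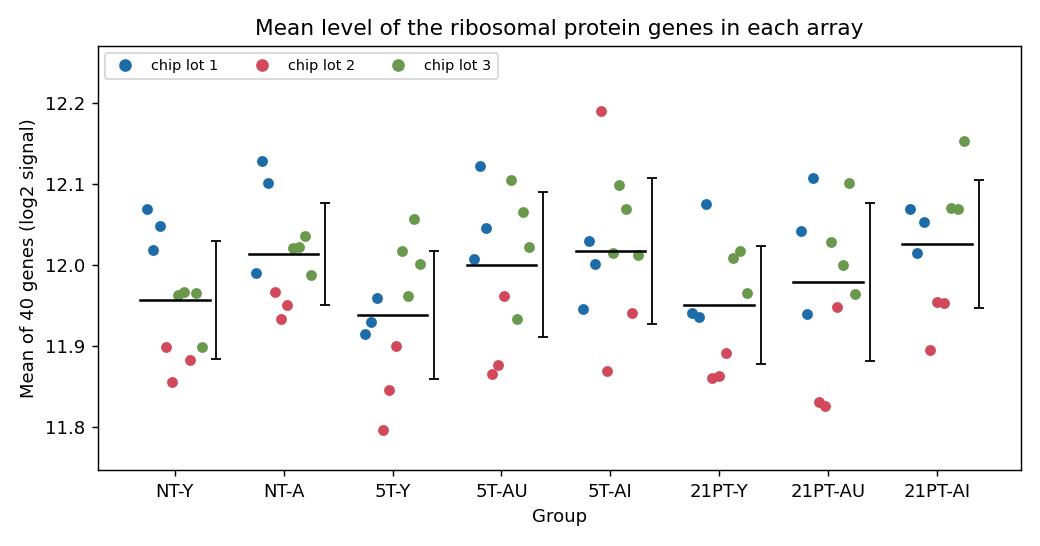
Mean log2 signal over the 40 members (y axis) in each array of the 8 groups (x axis), coloured by chip lot, with the group mean as a line and its SD as a bar. Arrays of the second lot mostly sit low in their group, with a mean of 11.91, except 5T-AI replicate 4 at 12.19.

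The members varied together from array to array. With group means subtracted, a member's Pearson r with the mean of the other members over the 78 arrays had a median of 0.66, against -0.03 for all other tested probe sets and 0.09 for the other bright ones. The median Spearman rho was 0.66 too, and the median r was 0.64 without the 2 arrays farthest from the middle for that mean. With scan day means subtracted as well, the median r was 0.6. Arrays share hybridisation, scaling and tissue make-up, and these correlations are a description with no p. The 33 probe sets of several symbols had a median r of 0.66, the mitochondrial ribosomal proteins 0.2, the initiation factors 0.21 and the genes of ribosome assembly 0.05. Pairs of members had a median r of 0.38.

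Rps3a, of the small subunit, followed the others most closely, with r = 0.87, and then came Rps6 (0.85), Rps16 (0.84) and Rpl19 (0.83). In all, 17 members had r above 0.7 and 5 had r below 0.3. The latter were Rpl7l1 (-0.04), Rps15a (0.18), Rpl39 (0.2), Rpl24 (0.27) and Rpl21 (0.28). Rpl7l1 and Rpl39 were the dimmest members, while Rps15a (12.41) was as bright as the rest. The lowest 5T-AI array of Rps15a was at 11.3, where the median of that group was 12.45. Of the members that led a comparison, Rpl26 (0.48), Rps24 (0.52), Rpl13a (0.38), Rps29 (0.5) and Rpl21 followed the others less closely than the median member, and Rpl5 (0.74) and Rps23 (0.75) more closely.

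**Figure D5:**
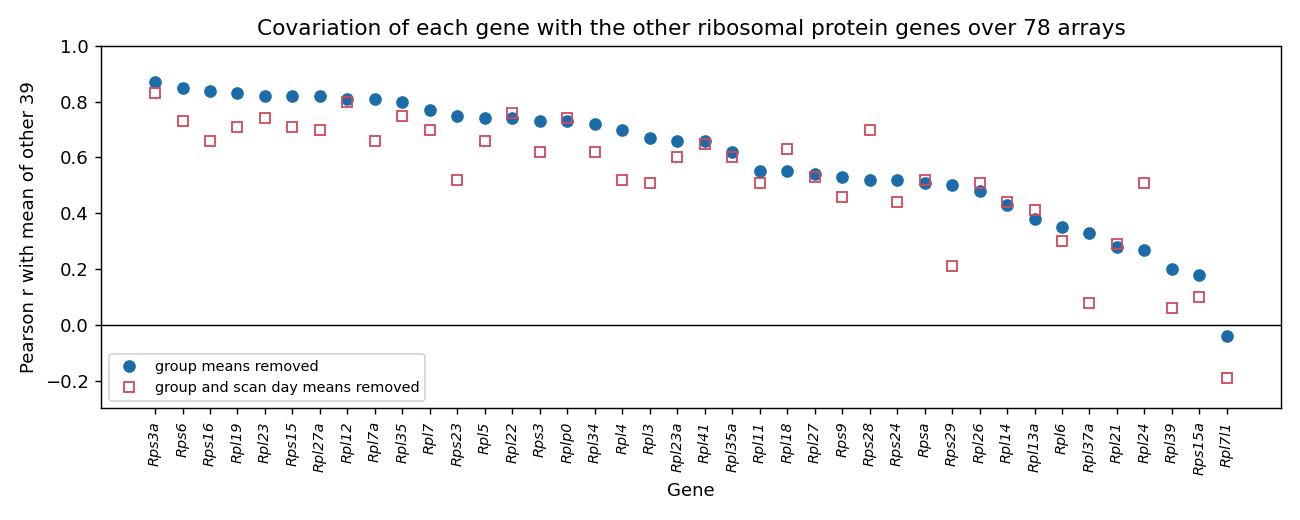
Pearson r (y axis) of each member (x axis) with the mean of the other members over 78 arrays, with group means subtracted (filled circles) and with group and scan day means subtracted (open squares). Values fall from 0.87 for Rps3a to -0.04 for Rpl7l1, with 17 members above 0.7.

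Outside the members, the 5 genes of 1 symbol with the closest pattern were Psma6 (r = 0.82), a proteasome subunit, Txn1 (0.81), the cytosolic thioredoxin, Mt3 (0.77), a brain metallothionein, Naca (0.76), which binds nascent chains at the ribosome, and Sec61g (0.75), a subunit of the channel for nascent chains in the endoplasmic reticulum. With scan day means subtracted these were 0.71, 0.7, 0.62, 0.7 and 0.75, and without the 2 farthest arrays 0.83, 0.84, 0.8, 0.74 and 0.74. None of the 5 passed with age in any cohort, the smallest adjusted p being 0.208, for Naca on day 21 with a difference of 0.1.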

How the data were processed

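The authors deposited linear signal intensity. The submitters' processing notes name MAS5 and GCOS 1.1. Every array's trimmed mean (2% off each end) was between 500.08 and 500.1, and nothing was rescaled here. Of 15923 probe sets 57 controls were left out and 10371 passed the filter. Gene symbols came from the platform annotation. Under R 4.3.3, limma 3.58.1 (lmFit, eBayes with trend) modelled log2(signal + 1) as 8 group means over 78 arrays, and p-values were adjusted by Benjamini-Hochberg over the tested probe sets at 0.05. SE is that of the fit. The script was tested on simulated data. The number of arrays limits the precision. Further tools were pandas 2.3.3, numpy 2.4.6, scipy 1.17.1 and matplotlib 3.10.9 under Python 3.11.15. Chip lot, scan day and module came from the deposited array records (other values, per the file headers); the animal table was not used.

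The members, lists, contrasts and 12 alternatives were chosen with earlier results of these data known. Named were the member with the smallest p in each of the 9 contrasts, since none passed, members listed for their roles, members whose probe sets disagreed in sign, and the 5 most correlated other genes. Of the roles listed, Rps27l did not pass and Rplp1, Rplp2, Rps27a, Rps19, Rpl10 and Rps4x had no probe set of a single symbol. Role and lot values use the brightest probe set.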

Additional observations from a re-analysis of the deposited data

Results flagged for a closer look

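Of 152 sets of arrays examined (18 of the genes named above and the mean of the members, in each of the 8 groups), 7 held an array far from the others of its group by Dixon's criterion, which flags about 1 in 20 groups by chance. In 5T-AI replicate 5 Rps29 was low at 12.4 (nearest array 12.78), Rps3 at 11.7 (nearest 11.97) and Rpl37a at 12.13 (nearest 12.98). Rpl37a was also low in NT-A replicate 6, at 12.54, with the nearest array at 13.08. Rpl12 was high in 5T-AI replicate 4, the array that stood apart, at 12.15 with the nearest at 11.87. Rpl13a was low in 21PT-AU replicate 8, at 11.65 with the nearest at 11.91, and Rpl22 was high in NT-A replicate 2, at 11.99 with the nearest at 11.74. The cause of these values was not tested.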

How the results depend on the processing

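Of 108 recomputed counts of members past the threshold (9 contrasts under 12 alternatives), 103 stayed at 0, and 5, all with age, did not. With scan day as a block 1 member passed in untrained rats (Rpl26, 0.18, adjusted p = 0.0248), 2 on day 5 (Rpl5, 0.12, adjusted p = 0.0391, and Rpl19, 0.1, adjusted p = 0.0436) and 1 on day 21 (Rps24, 0.2, adjusted p = 0.0257). With chip lot as a block 1 passed on day 21 (Rps24, 0.19, adjusted p = 0.0297), and after quantile normalization 1 on day 5 (Rpl5, 0.11, adjusted p = 0.0359). All were higher in aged rats. The shares of all tested probe sets were 1.15%, 3.65% and 4.7% under the scan day block, 4.94% under the chip lot block on day 21 and 2.54% after quantile normalization on day 5. Over the other alternatives the adjusted p reached 0.636 for Rpl26 and 0.856 for Rpl5 with fluidics module as a term and 0.64 for Rps24 with the actin ratio. The cause was not tested. Of 108 medians of the members 103 kept their sign, including all of those with age, and 13 of them moved over 1.5 times. Over the alternatives the medians ran from 0.034 to 0.052, from 0.063 to 0.078 and from 0.034 to 0.073 with age in untrained rats, on day 5 and on day 21. Those of impairment ran from 0.008 to 0.049 on day 5 and from 0.019 to 0.057 on day 21, and that of training in young rats from -0.048 to -0.011. The sign changed in training in aged rats (-0.02 to 0.008) and in day 21 against day 5 in young (-0.001 to 0.013) and aged rats (-0.03 to 0.003). For all tested probe sets the calls with age ran over the alternatives from 27 to 170 in untrained rats (main 81), from 54 to 379 on day 5 (259) and from 116 to 512 on day 21 (295). Deviations of arrays with the same replicate number in different groups had a median r of 0.146, from -0.248 to 0.482, against -0.023 for different numbers. Of the 78 arrays 55 were scanned on the commonest day of their number. Not every pair correlated and no label ties the numbers to a batch, so they were not taken as pairs, and with the replicate block 0 members passed in each contrast. Of all tested probe sets 0.955%, 2.92% and 4.83% passed with age under that block in untrained rats, on day 5 and on day 21. Each replicate in turn was not left out, since each group held 9 or 10 arrays. The array left out was 5T-AI replicate 4, which moved the day 5 impairment median from 0.025 to 0.008. The number of arrays and the standard errors near 0.05 limit what could be detected.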
